A study of Mus musculus with 6 samples.

Results

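The genes described here encode the major histocompatibility complex (MHC) class II antigen presentation machinery. They are the members of a fixed list of 8 symbols, H2-Aa, H2-Ab1, H2-Eb1, Cd74, Ciita, H2-DMa, H2-DMb1 and H2-DMb2, and all 8 were among the 48577 genes counted. Sorted lung cells of Miwi2-tdTomato mice on the C57BL/6 strain were compared, tdTomato-negative against tdTomato-positive, with 1 library of each kind from each of 3 mice. All mice carried the reporter, so the groups differ in the sort gate and not in genotype. tdTomato reports Piwil4, the gene of the Piwi protein MIWI2. The cells were gated as CD45-negative and EpCAM-positive. CD45, the product of Ptprc, is the surface marker of leukocytes, and EpCAM is an epithelial marker. Age and zygosity are not given in the sources used here. The labels call both fractions multiciliated cells, but the sort protocol names no gate for cilia.

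Class II molecules are alpha-beta heterodimers that carry peptides from the endosome to the cell surface, where CD4 T cells read them. The invariant chain Cd74 occupies the groove until it is degraded, and the H2-DM heterodimer then exchanges its last fragment for peptide. Ciita is the coactivator that switches the whole set on, through a promoter module of X and Y boxes bound by the RFX complex, CREB and NF-Y. Dendritic cells, B cells and macrophages are the classical class II cells, and in the mouse lung alveolar type 2 cells also carry class II without inflammation. In C57BL/6 mice the partner alpha chain of H2-Eb1 is not made, because its gene is a pseudogene.

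The promoter module described above is shown for the members whose promoters contained it. Promoter sequences, 250 bases before to 50 bases after the gene start, were read from RefSeq on GRCm38.p6 for 5 of the 8 members. In the runs below, written 5′ to 3′ on the gene's strand, capitals mark first the X letters CTNNNAAC and then the Y letters TGATTGG, which holds the inverted CCAAT core of the Y box.
H2-Aa, chr17:34287842-34287932, minus strand: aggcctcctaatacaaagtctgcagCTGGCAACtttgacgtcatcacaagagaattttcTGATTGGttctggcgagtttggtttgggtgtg
H2-Eb1, chr17:34305748-34305837, plus strand: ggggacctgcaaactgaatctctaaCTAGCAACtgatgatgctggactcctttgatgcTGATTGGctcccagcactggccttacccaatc
H2-DMb1, chr17:34153069-34153159, plus strand: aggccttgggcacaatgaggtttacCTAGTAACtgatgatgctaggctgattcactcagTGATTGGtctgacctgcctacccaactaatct
H2-DMb2, chr17:34145098-34145188, plus strand: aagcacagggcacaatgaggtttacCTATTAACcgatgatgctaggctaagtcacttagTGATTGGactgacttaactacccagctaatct
H2-Ob, chr17:34238790-34238877, plus strand: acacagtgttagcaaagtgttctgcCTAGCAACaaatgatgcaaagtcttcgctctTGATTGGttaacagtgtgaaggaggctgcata

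The X letters end 26 bases before the Y letters in H2-Aa, H2-DMb1 and H2-DMb2, 25 bases before them in H2-Eb1 and 23 bases before them in H2-Ob. H2-Ob, the beta chain of the H2-DM inhibitor H2-O, is no member and is shown because its RNA is set against theirs below. Searched on both strands, the X letters were in 41.1% and the Y letters in 7.82% of 32851 RefSeq mouse promoter windows of the same length. The X letters followed within 40 bases by the Y letters on the same strand were in 90 windows, or 0.274%. The letters were chosen after these promoters had been read, so the match describes them and is no test. H2-DMa, the remaining member whose promoter was read, had the pair in neither of its 2 windows. H2-Oa and H2-Eb2, class II genes outside the member list whose promoters were also read, lacked the pair too. No promoter of H2-Ab1, Cd74 or Ciita is described here.

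Counts in genes were 5330584 to 6326395 per library, and a gene with no read could be at up to 0.472 to 0.582 CPM (counts scaled to a common library size), the level of 3 reads. These floors cover counting error only. Piwil4 was at 39.7 ± 8.56 CPM in tdTomato-negative and 102 ± 7.91 CPM in tdTomato-positive libraries (SD, n = 3 per group; edgeR BH-adjusted p = 0.012), and tdTomato reads were present in tdTomato-positive libraries only. Summed over 9 multiciliated cell markers, the libraries held 3703 to 4337 CPM in tdTomato-negative and 3898 to 4778 CPM in the positive fraction. Summed over 12 alveolar type 2 markers they held 6711 to 8073 CPM in tdTomato-negative and 591 to 1156 CPM in the positive fraction. The label of the negative fraction names multiciliated cells only, and these alveolar type 2 genes were read at this level in it.

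Class II RNA was lower in the tdTomato-positive libraries of all 3 mice for the invariant chain, the 3 class II chains and the coactivator. H2-DMa and H2-DMb1 were lower in 2 mice and higher in mouse 2. The log2 fold changes (positive over negative) of Cd74, H2-Aa, H2-Ab1, H2-Eb1 and Ciita were between -1.96 and -1.34, corresponding to levels 2.53-fold to 3.90-fold lower. None of the 6 members that could be tested passed the edgeR quasi-likelihood test without a term for the mouse at an adjusted p under 0.05, where 0.577% of 13175 genes were called lower and 0.0455% higher. At an unadjusted p under 0.05, 5 of the 6 were lower, against 5.16% of all genes tested. With the mouse as a replicate block, 1 of 6 members fell, H2-Ab1, where 1.79% of all genes were called lower. DESeq2 without the block called 3 of 6 lower, Cd74, H2-Aa and H2-Ab1, where 1.43% of genes were called lower, and limma-voom without the block called none. With no filter on low counts, edgeR without the block called H2-Aa and H2-Ab1 lower, and 0.875% of 28108 genes.

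**Figure D1:**
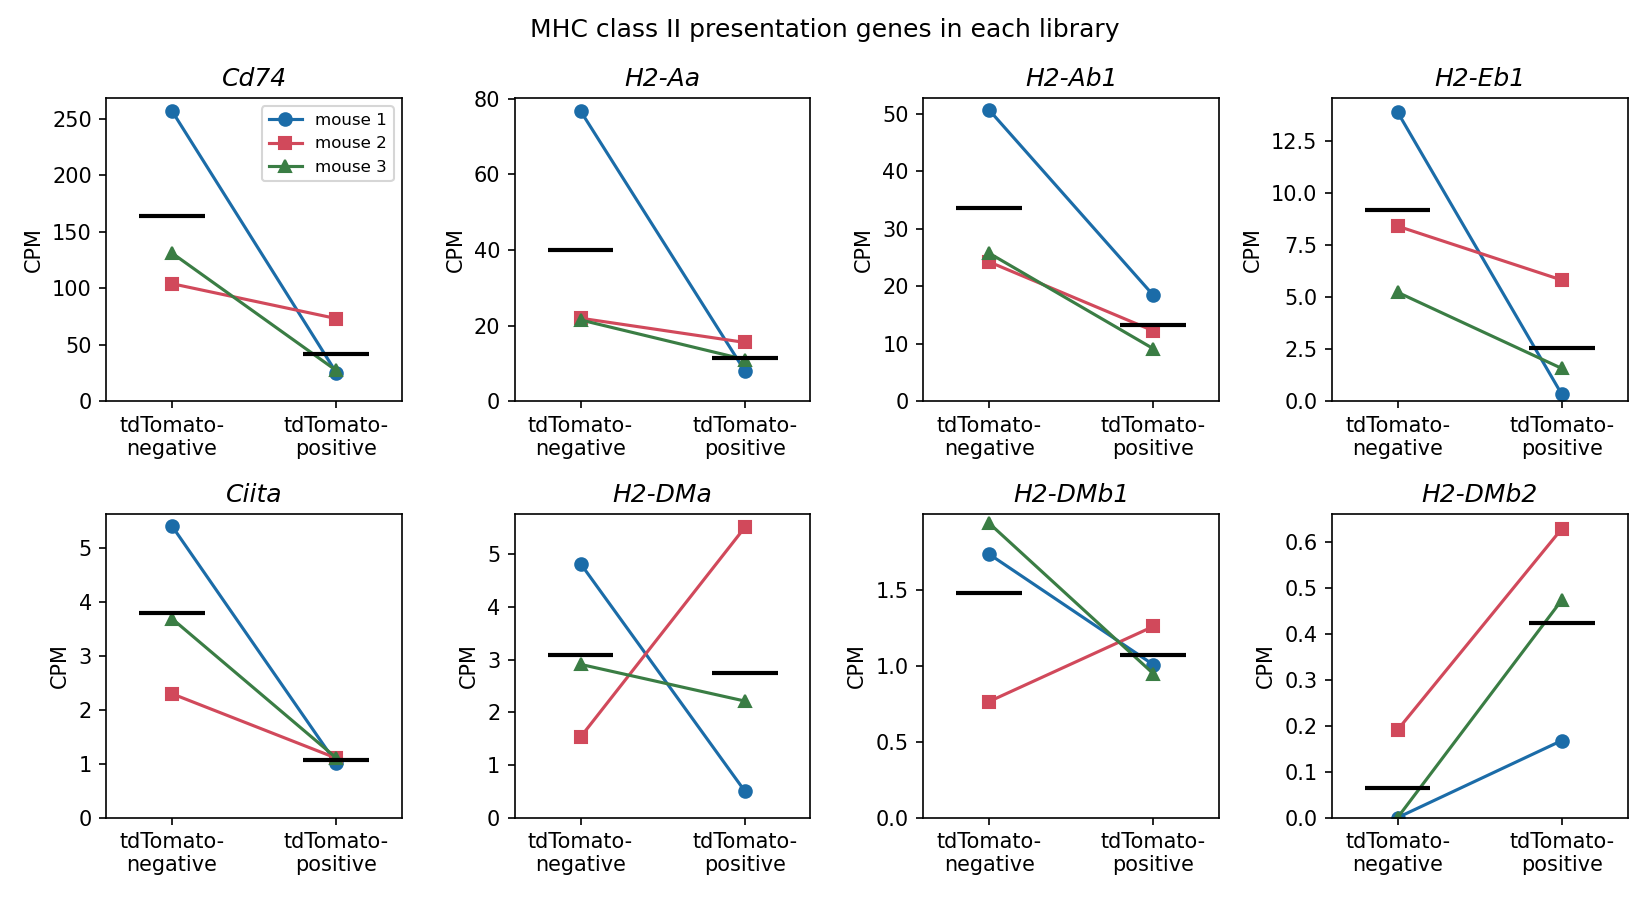
CPM (TMM-scaled counts) of the 8 class II members in each library, with lines joining the tdTomato-negative and tdTomato-positive library of 1 mouse and black bars at the group means (n = 3). Cd74, H2-Aa, H2-Ab1, H2-Eb1 and Ciita go down in all 3 mice, while H2-DMa and H2-DMb1 go up in mouse 2 and H2-DMb2 stays near the level of 3 reads.

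Cd74, the invariant chain that guides class II molecules to the endosome (chromosome 18), had the most reads of the 8 members. In mice 1, 2 and 3, the order used from here on, it was at 257, 104 and 131 CPM in tdTomato-negative and 25.5, 73.3 and 27.3 CPM in tdTomato-positive libraries. The groups did not overlap, but the size differed between mice: the positive library held 9.93%, 70.4% and 20.8% of the negative level in mice 1, 2 and 3. The log2 fold change was -1.96 ± 0.524 (SE; edgeR BH-adjusted p = 0.256; blocked adjusted p = 0.4). DESeq2 without the block gave an adjusted p of 0.000167, and with it 0.103. Without the block, edgeR called Cd74 with mouse 2 left out (adjusted p = 0.0228) or only its positive library (adjusted p = 0.0316). With the block it was called without mouse 1 (5.99e-07) or mouse 2 (3.67e-07), but not without mouse 3 (0.328).

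H2-Ab1 encodes the beta chain of I-A, the class II molecule that C57BL/6 mice express (chromosome 17, 34257689 to 34269419, plus strand, GRCm38). It was at 50.7, 24.3 and 25.8 CPM in tdTomato-negative and 18.5, 12.3 and 9.17 CPM in tdTomato-positive libraries. Every positive library was below every negative one, and the positive level was 36.4%, 50.6% and 35.5% of the negative level in the 3 mice, the narrowest range among Cd74, H2-Aa, H2-Ab1 and Ciita. Its log2 fold change came to -1.34 ± 0.365 (SE; edgeR BH-adjusted p = 0.191). With the replicate block it was -1.31 ± 0.264 (SE; edgeR BH-adjusted p = 0.00883). This call remained without mouse 1 or mouse 2 (adjusted p = 0.0124 and 0.00602) and was lost without mouse 3 (0.295).

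H2-Aa encodes the alpha chain that pairs with it (chromosome 17, 34282744 to 34287823, minus strand). It was at 76.7, 22.0 and 21.5 CPM in tdTomato-negative and 8.06, 15.6 and 11.1 CPM in tdTomato-positive libraries. Mouse 1 gave both extremes: its negative library stood far above the other 5, and its positive library was the lowest of all. In the other mice the positive library held 70.9% (mouse 2) and 51.4% (mouse 3) of the negative level, against 10.5% in mouse 1. For H2-Aa the log2 fold change came to -1.79 ± 0.515 (SE; edgeR BH-adjusted p = 0.245; blocked adjusted p = 0.126) and was -0.73 without mouse 1 (adjusted p = 0.449).

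H2-Eb1, the beta chain of I-E (chromosome 17, 34305867 to 34316674, plus strand), is transcribed in this strain without its partner. It was at 13.9, 8.41 and 5.24 CPM in tdTomato-negative and 0.336, 5.82 and 1.58 CPM in tdTomato-positive libraries. The groups overlapped, because the positive library of mouse 2 lay above the negative library of mouse 3. In mouse 1 it had 2 reads with tdTomato and 72 without. Its log2 fold change came to -1.82 ± 0.759 (SE; edgeR BH-adjusted p = 0.431; blocked adjusted p = 0.118). Leaving out mice 1, 2 and 3 in turn, the blocked values were -1.06, -3.19 and -2.31 (edgeR BH-adjusted p = 0.337, 0.0351 and 0.546).

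Ciita, the class II coactivator (chromosome 16, 10480059 to 10528418, plus strand), was low, with 28, 12 and 19 reads in tdTomato-negative and 6, 7 and 7 in tdTomato-positive libraries. This is 5.40, 2.29 and 3.68 CPM against 1.01, 1.10 and 1.11 CPM. The positive libraries lay close together and below all 3 negative ones, and the negative libraries differed among themselves in the same order as Cd74. On the log2 scale the difference was -1.80 ± 0.602 (SE; edgeR BH-adjusted p = 0.309; blocked adjusted p = 0.22), and no alternative run called it. Its exons overlap those of Dexi on the opposite strand, and the strand setting of the counting is not given in the sources used here.

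The products of the H2-DM genes load peptide onto class II molecules. H2-DMa (chromosome 17, 34119541 to 34139101, plus strand) was at 4.82, 1.53 and 2.91 CPM in tdTomato-negative and 0.504, 5.51 and 2.21 CPM in tdTomato-positive libraries. It was lower in mice 1 and 3 and higher in mouse 2, from 8 to 35 reads, so the groups overlapped. On the log2 scale it differed by -0.17 ± 0.77 (SE; edgeR BH-adjusted p = 0.957), and it was 0.77 without mouse 1 and 0.089 with library size only. Exons of H2-DMa overlap Brd2 on the opposite strand.

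H2-DMb1 and H2-DMb2, neighbouring genes of the H2-DM beta chain, were not kept by the filter on low counts. H2-DMb1 (chromosome 17, 34153072 to 34160230) had 9, 4 and 10 reads in tdTomato-negative and 6, 8 and 6 in tdTomato-positive libraries. H2-DMb2 (34143307 to 34151555) had 0, 1 and 0 reads in tdTomato-negative and 1, 4 and 3 in tdTomato-positive libraries. H2-DMb1 differed in the same direction as H2-DMa in each mouse. Both group means of H2-DMb2 lay under the floor of 3 reads, so no fold is given. Of 50-base windows of the H2-DMb1 transcript, 27.2% occurred unchanged in H2-DMb2, and 30.9% of the H2-DMb2 windows occurred in another gene. The read length is not given in the sources used here, and 50 bases is a setting of this work. Reads that lie wholly in shared sequence would be counted as aligned to several places. Both genes are therefore uncertain, and their counts may be too low. None of the H2-Aa, H2-Ab1, H2-Eb1, Cd74 or H2-DMa windows was shared.

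Per kilobase of exon, Cd74 lay above the other members, at 97.8 ± 48.6 CPM per kilobase in tdTomato-negative and 25.1 ± 16.1 in tdTomato-positive libraries (SD, n = 3 each). H2-Ab1 followed at 13.1 ± 5.78 and 5.18 ± 1.84 CPM per kilobase, and H2-Aa was at 10.6 ± 8.36 and 3.05 ± 0.997. H2-Eb1 was at 4.72 ± 2.25 and 1.33 ± 1.48. H2-DMa, H2-DMb1 and Ciita were all below 1 in both groups, at 0.895 ± 0.479, 0.88 ± 0.373 and 0.398 ± 0.163 CPM per kilobase in the negative libraries. H2-Ab1 and H2-Aa, neighbours in this order, did not differ beyond their spread. The length used was the union of all annotated exons, 3798, 2568 and 3448 bases for H2-Aa, H2-Ab1 and H2-DMa. Their longest coding transcripts had 1128, 1212 and 2005 bases. The levels per kilobase and the order of H2-Ab1 and H2-Aa therefore depend on the length used.

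Across the 6 libraries the log2 CPM of Cd74 correlated with that of H2-Aa at a Pearson r of 0.932, of H2-Eb1 at 0.926, of Ciita at 0.911 and of H2-Ab1 at 0.818. H2-DMa correlated with H2-Ab1 at 0.163 and with Cd74 at 0.638. These values describe 6 libraries that come in pairs from 3 mice and share the contrast between the fractions.

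Of the 13175 genes tested, 47.3% had a log2 fold change below 0, and 5.49% had one of -1 or below. Of the 6 members tested, all 6 were below 0 and 5 were at -1 or below. Their median was -1.80, against 0.03 over all genes. The groups did not overlap, with the positive one lower, for 4 of the 6, against 9.02% of all genes. The positive library was lower in 3 of 3 mice for 5 of the 6, against 18.8% of all genes. Over the 21 alternative runs of these 5 members their direction did not change; Ciita had 20 runs, since it did not pass the stricter filter.

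No other gene of the class II pathway that passed the filter was called by edgeR without the replicate block. Among 4 further class II genes, H2-Oa and H2-Ea-ps had 0 reads in all libraries and H2-Eb2 had 2 reads in all. H2-Ob was at 3.08 ± 1.18 CPM in tdTomato-negative and 4.78 ± 0.47 CPM in tdTomato-positive libraries (SD, n = 3 each), with 11, 23 and 14 against 29, 33 and 27 reads. It was higher in the positive library of each mouse, although the groups overlapped in CPM, with a log2 fold change of 0.63 ± 0.496 (SE; edgeR BH-adjusted p = 0.684). This value was opposite in sign to those of H2-Aa and H2-Eb1, but H2-Ob was not called, so its direction is uncertain. Its promoter held the same X and Y letters, and any link between these letters and the differences was not tested.

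The factors that bind the class II promoter module were called in neither direction. Of 7 listed, 6 were tested (Rfx5, Rfxap, Nfya, Nfyb, Nfyc and Creb1), and their median log2 fold change was 0.02. Creb1, the gene of highest CPM on that list, was at 103 ± 2.92 CPM in tdTomato-negative and 100.2 ± 6.34 CPM in tdTomato-positive libraries (SD, n = 3 per group; edgeR BH-adjusted p = 0.954). Rfx5, the DNA-binding subunit of the RFX complex, had a log2 fold change of -0.02 (edgeR BH-adjusted p = 0.99).

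Of 5 genes that feed the interferon-gamma signal, the best known inducer of Ciita, none was called and the median log2 fold change was 0.0054. Jak2, a kinase of the receptor, was at 203 ± 51.0 and 189 ± 32.3 CPM (SD, n = 3 per group; edgeR BH-adjusted p = 0.893). Irf1, a transcription factor of that signal, had a log2 fold change of 0.06 (edgeR BH-adjusted p = 0.958). None of 6 endosomal proteases and reductases was called (median 0.06), among them Ctsb, a cathepsin (edgeR BH-adjusted p = 0.822).

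Ctss, the protease that trims the invariant chain, had its highest count in the negative library of mouse 2, as Ptprc did. It had 103, 340 and 21 reads in tdTomato-negative and 45, 53 and 48 in tdTomato-positive libraries, and it was higher in the positive library of mouse 3 (log2 fold change -1.92, edgeR BH-adjusted p = 0.496). The only costimulatory gene of 6 that could be tested was Cd274, which encodes PD-L1, at a log2 fold change of -0.39 (edgeR BH-adjusted p = 0.479). Of the ubiquitin ligases that remove class II from the surface, March8 was at -0.13 (edgeR BH-adjusted p = 0.887), and March1 had 36 reads in tdTomato-negative and 4 in tdTomato-positive libraries.

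MHC class I presentation genes, which sample the cytosol, gave a median of -0.10 over 6 genes tested of 9. H2-K1 was at -0.07 and H2-D1 at -0.14 (edgeR BH-adjusted p = 0.927 and 0.861). B2m, the light chain of class I, was at -0.61 (edgeR BH-adjusted p = 0.671) and fell with the replicate block (log2 fold change -0.76, edgeR BH-adjusted p = 0.041). That call was lost without mouse 2 (0.218) or mouse 3 (0.572).

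**Figure D2:**
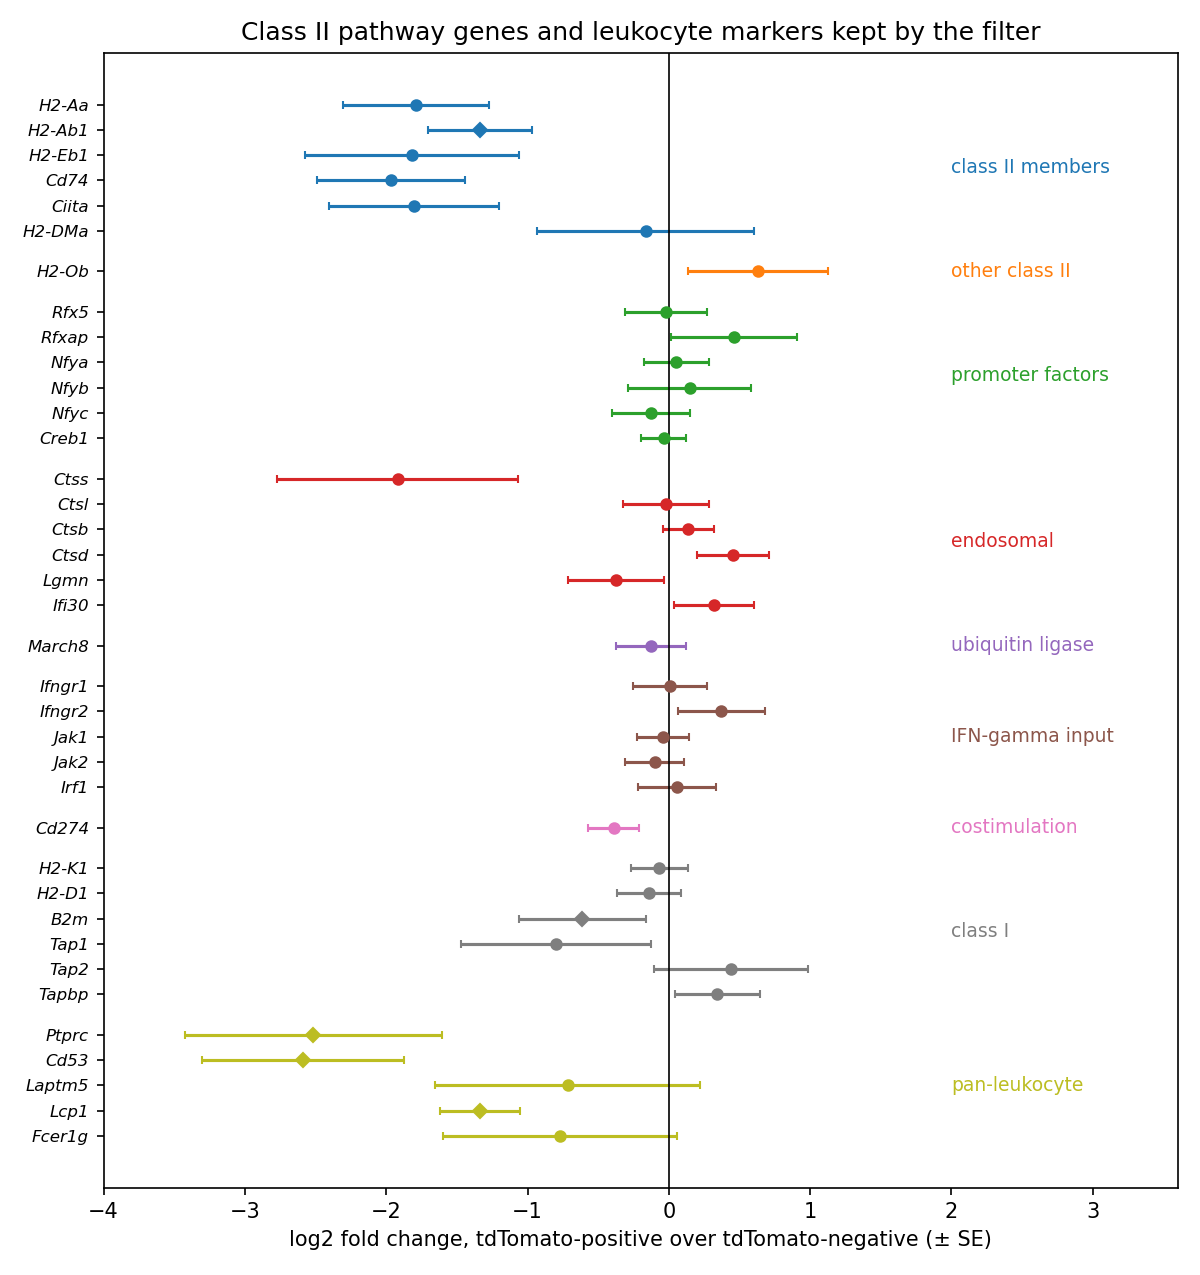
Log2 fold change, tdTomato-positive over tdTomato-negative, with its SE, for the class II members, the other class II pathway genes and the leukocyte markers kept by the filter; diamonds mark genes called with the mouse as a replicate block. Cd74, H2-Aa, H2-Ab1, H2-Eb1 and Ciita sit between -1.96 and -1.34, with Ptprc at -2.51, while the promoter factors and interferon-gamma genes sit near 0.

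Ptprc, the gene of the CD45 antigen that the gate excludes, was read in every library. It had 159, 264 and 25 reads in tdTomato-negative and 13, 63 and 18 in tdTomato-positive libraries, or 30.7, 50.5 and 4.85 against 2.18, 9.91 and 2.84 CPM. It was lower in the positive library of all 3 mice, and the groups overlapped because the negative library of mouse 3 held so little. The log2 fold change was -2.51 ± 0.912 (SE; edgeR BH-adjusted p = 0.41), and with the replicate block Ptprc fell, at -2.37 ± 0.44 (SE; edgeR BH-adjusted p = 0.00502). The blocked call was lost without mouse 2 (adjusted p = 0.0618). Ptprc RNA was thus lower in the same direction as Cd74, H2-Aa, H2-Ab1, H2-Eb1 and Ciita. In bulk samples, fewer cells of a type and less RNA per cell cannot be told apart.

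Within the mice, the class II and Ptprc differences were not of the same size. Summed over H2-Aa, H2-Ab1, H2-Eb1 and Cd74, the positive library held 13.1%, 67.4% and 26.7% of the negative level in mice 1, 2 and 3. For Ptprc these values were 7.12%, 19.6% and 58.7%. The smallest class II difference was in mouse 2 and the smallest Ptprc difference in mouse 3. Mouse 3 had the fewest Ptprc reads in its negative library, and there the class II sum was 184 CPM in tdTomato-negative and 49.1 CPM in the positive library, while Ptprc was at 25 and 18 reads. The negative library of mouse 2 had the most Ptprc reads, 264, and the lowest class II sum of the negative libraries, 159 CPM, against 398 CPM in mouse 1.

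**Figure D3:**
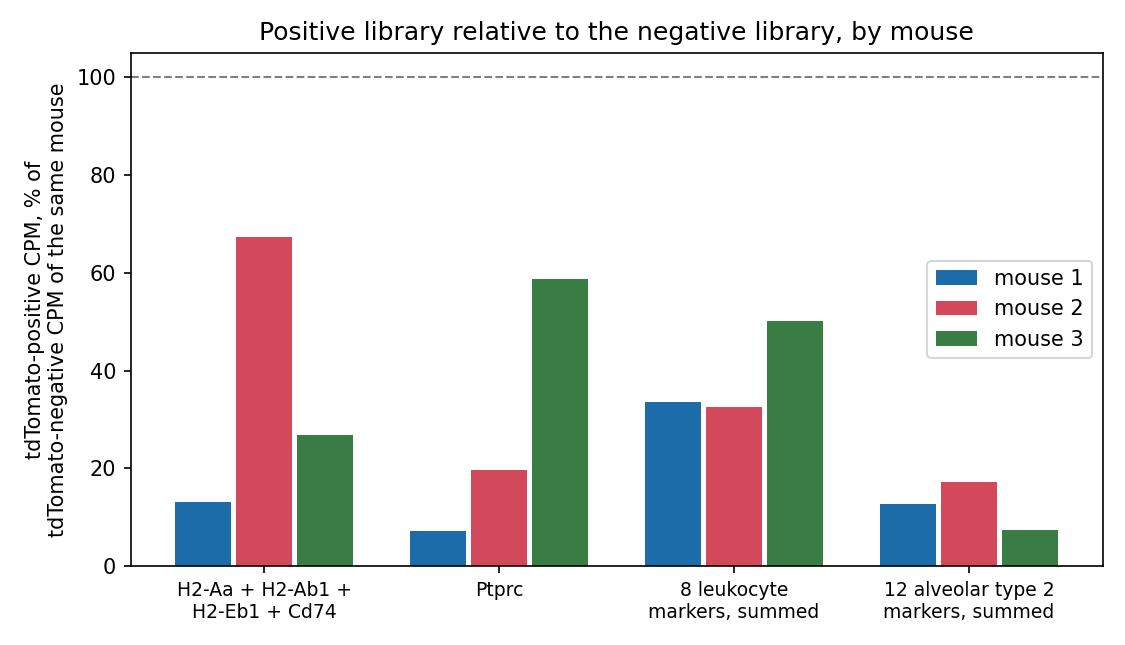
CPM of the tdTomato-positive library as a percent of the tdTomato-negative library of the same mouse, for the summed class II genes, Ptprc, 8 summed leukocyte markers and 12 summed alveolar type 2 markers; the dashed line marks no difference. All bars lie below the dashed line, with the class II bar highest in mouse 2 (67.4%) and the Ptprc bar highest in mouse 3 (58.7%).

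The number of class II reads per Ptprc read varied between libraries by more than counting error. For Cd74 it was 8.38 (95% interval 7.11 to 9.95), 2.06 (1.78 to 2.4) and 27.1 (18.2 to 42.1) without tdTomato, in mice 1, 2 and 3. In the positive libraries it was 11.7 (6.64 to 22.5), 7.40 (5.68 to 9.78) and 9.61 (5.90 to 16.6). The negative libraries spanned the whole range and the positive ones lay inside it. For H2-Ab1 the ratio was 1.65, 0.481 and 5.32 in tdTomato-negative and 8.46, 1.24 and 3.22 in tdTomato-positive libraries. Against the negative library of the same mouse it was higher in mice 1 and 2, where the 95% intervals did not overlap. In mouse 3 it was lower, but the intervals overlapped (3.45 to 8.52 in the negative and 1.87 to 5.81 in the positive library). The intervals are exact binomial ones and cover counting error only, since amplified reads are not independent molecules.

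**Figure D4:**
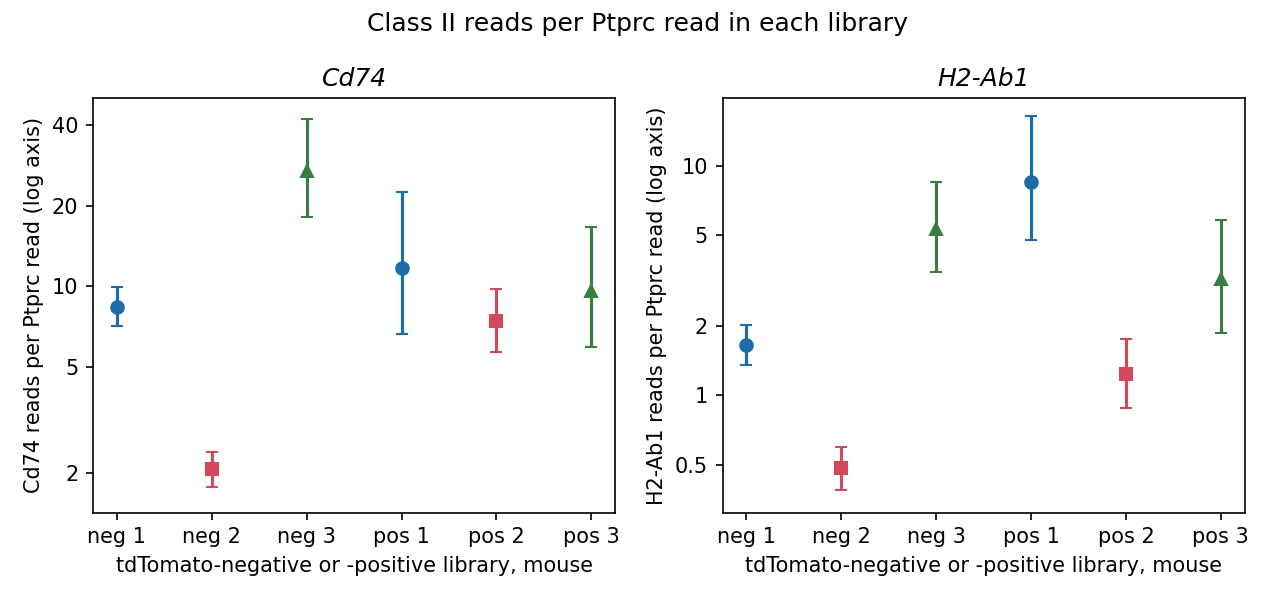
Reads of Cd74 and of H2-Ab1 per Ptprc read in each library on a log axis, with exact 95% binomial intervals; neg and pos stand for the tdTomato-negative and tdTomato-positive library of each mouse. Cd74 gave 2.06 reads per Ptprc read in the negative library of mouse 2 and 27.1 in that of mouse 3, with the positive libraries between 7.40 and 11.7.

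The other pan-leukocyte markers differed in level and between mice. Summed over 8 pan-leukocyte markers, the libraries held 65.9 to 222 CPM in tdTomato-negative and 33.0 to 72.5 CPM in the positive fraction. Of these 8, 5 were tested, none was called by edgeR without the block, and with it Ptprc, Cd53 and Lcp1 fell. DESeq2 without the block called Cd53 and Lcp1 lower, as edgeR did with no filter on low counts. Cd53, a leukocyte tetraspanin, was at -2.34 on the log2 scale in the blocked fit (edgeR BH-adjusted p = 0.0113), a call lost without mouse 2 (0.2) or mouse 3 (0.058). Lcp1, the leukocyte plastin, was at -1.30 in that fit (edgeR BH-adjusted p = 0.000706), lost without mouse 3 (0.0865). It had the highest CPM of the 8, at 64.0, 110 and 55.3 CPM in tdTomato-negative and 29.0, 37.45 and 24.2 CPM in tdTomato-positive libraries. In the negative library of mouse 3, Lcp1 thus made most of the sum of 65.9 CPM. Coro1a, an actin regulator of leukocytes, had reads in 1 library only, the negative one of mouse 1.

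Markers of B cells and dendritic cells had few reads. The 7 B cell markers had 12 to 49 reads together in tdTomato-negative and 11 to 40 in tdTomato-positive libraries, and none passed the filter. Ms4a1, which encodes a B cell surface protein and had the highest CPM of them over all 6 libraries, was at 1.41 ± 0.952 and 1.33 ± 1.76 CPM (SD, n = 3 each). Pax5, a B cell transcription factor, had 17, 12 and 3 reads in tdTomato-negative and 0, 0 and 1 in tdTomato-positive libraries. The 8 dendritic cell markers had 76 to 180 reads together in tdTomato-negative and 81 to 152 in tdTomato-positive libraries. Among them Batf3 had 0 reads in all libraries, and Flt3 had 1 read over the negative and 3 over the positive libraries. Xcr1 had 12 reads over the negative and 0 over the positive libraries, and Clec9a 22 and 1, while Cd209a had 16 and 48 and Ccr7 12 and 14. Itgax, the gene of the integrin CD11c, had 48, 79 and 4 reads in tdTomato-negative and 7, 41 and 4 in tdTomato-positive libraries (log2 fold change -1.59, edgeR BH-adjusted p = 0.627). The transcription factor Zbtb46, the gene of highest CPM on that list, was at 13.0 ± 0.356 and 11.5 ± 3.48 CPM (SD, n = 3 per group; edgeR BH-adjusted p = 0.886).

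The 10 macrophage markers summed to 142, 803 and 55.8 CPM in tdTomato-negative and 62.8, 126 and 68.7 CPM in tdTomato-positive libraries. Chil3, a chitinase-like protein of alveolar macrophages, made most of this in mice 2 and 3, with 355, 3639 and 180 reads in tdTomato-negative and 140, 638 and 284 in tdTomato-positive libraries (edgeR BH-adjusted p = 0.639). The macrophage sum was thus highest in the negative library of mouse 2, where the class II sum was lowest among the negative libraries. In mouse 3 it was higher in the positive than in the negative library, while the class II sum was lower. T and NK cell markers summed to at most 4.97 CPM, and neutrophil markers to at most 7.26 CPM, in any library. Csf3r, a granulocyte growth factor receptor, was the neutrophil marker of highest CPM (log2 fold change -1.12, edgeR BH-adjusted p = 0.754), and Cd3e, a T cell receptor subunit, was at 0.578 ± 0.51 and 1.44 ± 1.5 CPM (SD, n = 3 each).

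Alveolar type 2 genes were lower in the positive fraction in every mouse. Among the class II members this held for Cd74, H2-Aa, H2-Ab1, H2-Eb1 and Ciita, but not for the H2-DM genes. All 12 alveolar type 2 markers were tested. Their groups did not overlap, with the positive one lower, against 9.02% of all genes. Of the 12, 7 fell, 0 rose and 5 were not called, where 0.577% of all genes were called lower. With the replicate block 9 fell, where 1.79% of all genes were called lower. Sftpc, which encodes surfactant protein C, was at 1286 ± 52.6 CPM in tdTomato-negative and 111 ± 46.1 CPM in tdTomato-positive libraries (SD, n = 3 per group; edgeR BH-adjusted p = 0.000223). Lpcat1, Lyz2 and Sftpd had log2 fold changes of -3.47, -3.09 and -2.53 (edgeR BH-adjusted p = 0.000223, 0.000448 and 0.00209). Summed over the 12 markers, the positive library held 12.8%, 17.2% and 7.32% of the negative level in mice 1, 2 and 3. The negative libraries were close to each other in this sum, at 7933, 6711 and 8073 CPM, while their class II sums differed from 159 to 398 CPM. Lyz2, the gene of highest CPM on the list, made 3281, 1680 and 2615 CPM of these marker sums. The cells that its reads came from were not tested. Without the block, 5 to 9 of the 12 markers were called lower when 1 library or 1 mouse was left out. In these runs 0.126% to 0.713% of all genes were called lower. With the block, 9 to 11 were called lower when 1 mouse was left out, where 0.342% to 2.66% of all genes were called lower. The list was chosen with this fall known. The part of alveolar type 2 RNA or of leukocyte RNA in the class II difference was not tested.

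No airway marker was called lower by edgeR. Of 9 multiciliated cell markers none was called by edgeR without the block. With it Foxj1, Tppp3 and Cfap126 rose (blocked log2 fold change 1.2, 1.02 and 0.70, edgeR BH-adjusted p = 0.000129, 0.000729 and 0.0301), where 1.36% of all genes were called higher. These calls were lost for all 3 without mouse 3, and for Cfap126 also without mouse 1. With no filter on low counts, edgeR without the block called Cfap126 and Rsph1 higher. Dnah12, an axonemal dynein and the gene of highest CPM on the list, was at -0.37 (edgeR BH-adjusted p = 0.423). Of 8 club cell markers, genes of airway secretory cells, none was called by edgeR without the block and 7 rose with it, where 1.36% of all genes were called higher. With the block 5 to 8 rose when 1 mouse was left out, where 13 to 279 genes in all were called higher. Without it, DESeq2 called 1 (Cyp2a5), edgeR with no filter on low counts 2 (Cbr2 and Cyp2a5), edgeR without the positive library of mouse 2 again Cyp2a5, and edgeR without mouse 3 called 4 (Scgb1a1, Scgb3a1, Reg3g and Bpifa1). Scgb1a1, the club cell secretoglobin, had 2019 ± 1310 and 9390 ± 6235 CPM (SD, n = 3 per group; edgeR BH-adjusted p = 0.479; blocked adjusted p = 1.36e-06). Of 9 mesenchymal and endothelial markers, 5 were tested and none was called, and Kdr, a receptor of endothelial cells, was at 0.99 (edgeR BH-adjusted p = 0.452). The epithelial genes Cdh1 and Epcam were at 0.35 and 0.30 (edgeR BH-adjusted p = 0.533 and 0.72).

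Among 7991 other genes of sufficient level, those whose log2 CPM was most like the mean of Cd74, H2-Aa, H2-Ab1 and H2-Eb1 over the 6 libraries were Ctsh, Kmt2c, Ints10, Fasn, D10Wsu102e, Znrf3, Cnot6l and Epb41. Their Pearson r was 0.961 to 0.987. Ctsh, the gene of cathepsin H and first in this order (r = 0.987), was at 251, 199.9 and 197 CPM in tdTomato-negative and 138, 178 and 159 CPM in tdTomato-positive libraries. Like Cd74, H2-Aa and H2-Eb1, it was highest in the negative and lowest in the positive library of mouse 1. Fasn, the fatty acid synthase (r = 0.973), was at 182, 114 and 124 CPM in tdTomato-negative and 42.5, 79.5 and 63.7 CPM in tdTomato-positive libraries. On the same measure Ptprc was at 0.800 and Sftpc at 0.887. The tested pan-leukocyte markers ran from 0.308 to 0.800 and the 12 alveolar type 2 markers from 0.604 to 0.927, so the ranges overlapped. None of the 8 genes most like the class II mean was called by edgeR without the block (BH-adjusted p = 0.0758 to 0.899). With it Fasn and Znrf3 fell (log2 fold change -1.18 and -1.52, edgeR BH-adjusted p = 0.0125 and 0.0107).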

How the data were processed

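Each deposited file gives unnormalized counts of 1 library for 48577 gene symbols, plus 5 HTSeq summary rows that entered neither library sizes nor tests. Per the labels' protocols, total RNA was amplified before library preparation. The submitters' processing notes list GRCm38.p4 and mm10 as builds, and FastQC, HTSeq, DESeq2, cutadapt 1.7.1 and STAR 2.4.2a as tools. Reads aligned to several places were 8.26% to 12.0% of all rows counted, and reads in no gene 41.0% to 49.4%.

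From the counts, CPM with TMM factors, log2 fold changes and two-sided p-values were computed with edgeR 4.0.16 in R 4.3.3 (glmQLFit, robust; filterByExpr with a count minimum of 10, which kept 13175 genes). The SE is the log2 fold change divided by the root of F. Benjamini-Hochberg adjusted p under 0.05 over all genes kept was called. Correlations used log2(CPM + 0.5). The labels pair the libraries by mouse. Deviations from group means correlated at 0.268, 0.254 and 0.348 within mice 1, 2 and 3, and at -0.216 to -0.0989 between mice. The main fit has no term for the mouse and so leaves this pairing out. Every p-value or call for which the block is not named comes from a fit without that term. A fit with the mouse as a replicate block is given where it changes a call. Gene positions and exon lengths are from GENCODE on GRCm38. The fits were tested on simulated data.

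The members and all gene lists were chosen with earlier results of these data known. Text names all members, Ptprc, the called genes (at most 4) and the gene of highest CPM of each list, and the 8 genes most like the class II profile with a mean log2 CPM of at least 3. Others (H2-K1, H2-D1, Rfx5, Irf1, Ctss, March1, Coro1a, Batf3, Flt3, Xcr1, Clec9a, Cd209a, Ccr7, Itgax, Pax5, Rsph1, Bpifa1, Epcam and the rest of the class II genes) were added with their values in view. A gene of the interferon-gamma list is not reported here. The alternatives run were other normalizations and filters, DESeq2 1.42.0, limma-voom (limma 3.58.1), the replicate block, and leaving out each library or mouse. DESeq2 and limma-voom with the block were added after the data were seen.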

Additional observations from a re-analysis of the deposited data

How the results depend on the processing

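Over all genes, edgeR without the replicate block called 82, 6 higher and 76 lower in the tdTomato-positive libraries. The counts (all, higher and lower) were 413, 167 and 246 with no expression filter, 245, 56 and 189 with DESeq2, and 415, 179 and 236 with the replicate block. The block gave 633, 279 and 354 without mouse 1, 380, 165 and 215 without mouse 2, and 59, 13 and 46 without mouse 3. DESeq2 and limma-voom with the block, added after the data were seen, gave 464, 201 and 263, and 544, 273 and 271. With library size only, 22 were higher and 54 lower, and the median of all genes moved from 0.03 to 0.29. Leaving out 1 library or 1 mouse without the block gave 22 to 113 genes, 2 to 15 higher and 17 to 98 lower. The cause was not tested.

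Log2 fold changes of the members that gained a call were -1.77 for H2-Aa and -1.32 for H2-Ab1 with no expression filter, and -1.79 for H2-Aa, -1.33 for H2-Ab1 and -1.97 for Cd74 with DESeq2. With the replicate block H2-Ab1 was at -1.31 (-1.25 without mouse 1, -1.47 without mouse 2, -1.31 with DESeq2 and -1.32 with limma-voom). The block gave Cd74 -1.38 without mouse 1 and -2.80 without mouse 2, and H2-Eb1 -3.19 without mouse 2, all called. Ptprc was called with the block at -2.37 (-1.76 without mouse 1, -2.96 without mouse 3, -2.34 with DESeq2 and -2.51 with limma-voom). H2-DMa turned higher, uncalled, at 0.089 with library size only and 0.70 with the block without mouse 1. Without the block and with 1 library or mouse left out, the ranges were -2.36 to -0.73 for H2-Aa, -1.64 to -0.91 for H2-Ab1, -3.28 to -0.90 for H2-Eb1, -2.88 to -1.25 for Cd74, -2.08 to -1.44 for Ciita, -1.49 to 0.77 for H2-DMa and -3.50 to -1.84 for Ptprc. Of these runs, 2 called a member, Cd74. The cause was not tested. H2-DMb1 and H2-DMb2 were tested with no expression filter (edgeR adjusted p = 0.876 and 0.674). H2-DMb1 was at -0.44, and H2-DMb2 rested on 1 read against 8, so its fold is not given. Depth limits Ciita, H2-Eb1 and the H2-DM genes, which had few reads.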
